A study of Mus musculus with 12 samples.

Results

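Expression in both stable clones was compared with that in WT NIH-3T3 cells, an immortalised line of mouse embryonic fibroblasts. The quantity of interest was the average of the U17_KD and U17_OE group means minus the WT mean, for every gene, and with it the genes that moved the same way in each clone. All 12 arrays of the series entered this comparison, 4 per group, with 1 culture per array and the arrays named biological replicates in the labels. The WT labels name no construct, U17_KD is 1 stable clone with a short hairpin construct named ShSnhg3, and U17_OE is 1 stable clone with a construct named pMDβglobinU17b. All 3 groups were kept for 24 hours in medium with lipoprotein-deficient serum (LPDS). Each construct is represented by a single clone and no clone with an empty construct was analysed here, so an effect of the constructs, of the making of a stable clone and of differences that the clones happened to carry cannot be told apart. The labels do not say whether the 4 cultures of a group were grown independently, and p-values measure the spread between these cultures only.

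U17 is a small nucleolar RNA of the H/ACA box class that takes part in the early processing of the ribosomal RNA precursor, and it is cut from introns of the host transcript Snhg3. Cells in lipoprotein-deficient serum lose their outside supply of cholesterol, whereupon the SREBP transcription factors are released from the endoplasmic reticulum and drive the genes of cholesterol synthesis. Fibroblasts secrete the collagens and other proteins of the extracellular matrix, and growth factors such as Igf2 and the ERK pathway control their proliferation.

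The 16706 probes kept stand for 9108 named genes, and levels are log2 intensities. U17 and its host had no named probe (Snora73a, Snora73b, Snhg3), and the amount of U17 went unmeasured on these arrays. Of 14 fibroblast markers on the array, 11, with Vim, Thy1, Dcn and Col1a1 among them, were detected on all 12 arrays, while Fap was detected on none. Of 8 adipocyte markers 7 were detected on no array, as were 6 of 8 macrophage and leukocyte markers and 8 of 9 neural and melanocyte markers. Of bone and cartilage, muscle, epithelial and endothelial markers 5 of 9, 5 of 7, 5 of 8 and 5 of 7 were detected on none. The summed bone and cartilage markers were at 12799 to 17627 over all arrays, and the summed endothelial markers at 110 to 133 in WT, 194 to 218 in U17_KD and 107 to 151 in U17_OE. The summed neural and melanocyte markers were at 234 to 258 in WT, 132 to 149 in U17_KD and 130 to 151 in U17_OE. The summed epithelial markers were at 175 to 232 in WT, 116 to 157 in U17_KD and 148 to 209 in U17_OE. The summed adipocyte markers were at 655 to 857 in WT, 2107 to 2546 in U17_KD and 1003 to 1789 in U17_OE, and Lpl was the adipocyte marker detected. Cd14 was the macrophage and leukocyte marker detected on every array, and Sox9 the bone and cartilage one. The summed intensity of the fibroblast markers was 64989 to 72679 in WT, 74696 to 78926 in U17_KD and 65326 to 74172 in U17_OE. U17_OE replicate 3 lay farther from its group mates (SD of differences 0.393 on the log2 scale) than any other array (0.182 to 0.273), so counts are given with and without it. In RNA from whole cultures, a change in the share of cells with a transcript and a change in its amount per cell cannot be told apart.

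Averaged over the clones, 1388 genes were higher and 1351 lower than in WT, 2739 in all (30.1% of genes tested, limma, Benjamini-Hochberg adjusted p under 0.05). The average alone does not say that both clones moved. Of these genes, 1690 were called in U17_KD only, 170 in U17_OE only, 79 in neither clone alone and 21 in opposite directions. Genes that also passed the test in each clone with the same sign, called shared from here on, numbered 414 higher (4.55% of genes tested) and 365 lower (4.01%), or 779 genes (8.55%). In single clones 3685 genes (40.5%) were called in U17_KD and 1170 (12.8%) in U17_OE. Both clones were set against the same 4 WT arrays, so chance deviations of WT enter both and the shared count is no independent support of either clone's calls. Without U17_OE replicate 3 the shared genes were 597 higher and 549 lower, and without U17_OE replicate 4 they were 293 higher and 235 lower.

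Most shared changes were small. The median shared rise was 0.77 in U17_KD and 0.49 in U17_OE on the log2 scale, and the median shared fall was -0.64 and -0.47. Only 53 genes changed at least 2-fold in both clones, 31 of them higher and 22 lower. When each clone was tested against a fold of 1.2 instead of no change (limma treat), 82 shared rises and 54 shared falls passed. Irrespective of any model, the 8 clone arrays all lay above the 4 WT arrays for 486 genes (5.34%) and all below them for 420 (4.61%), which makes 906 (9.95%). This held for 365 of the 414 shared rises and for 296 of the 365 shared falls. A further 83 probes without a gene name were higher and 64 lower in both clones.

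**Figure D1:**
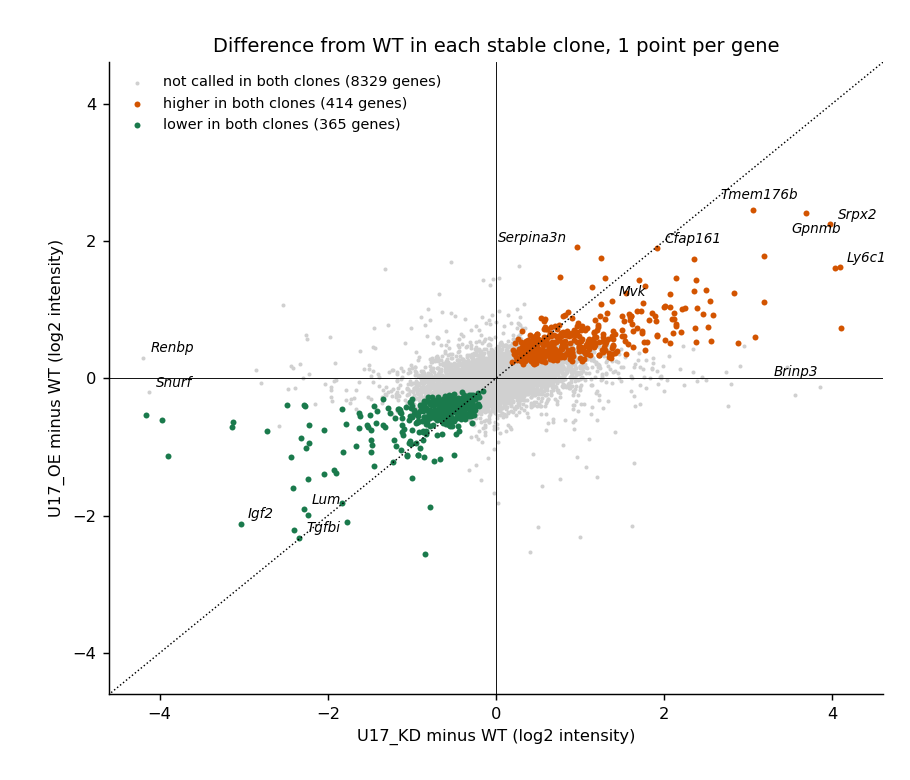
Difference from WT in the U17_KD clone (horizontal axis, log2 intensity) against that in the U17_OE clone (vertical axis, log2 intensity), 1 point per gene; orange and green points are the 414 genes higher and the 365 genes lower in both clones, and the dotted line marks equal change. Both axes use the same WT arrays. Gpnmb, Ly6c1 and Igf2 changed more in U17_KD than in U17_OE, Cfap161 and Tgfbi lie on the dotted line, and Snurf, Renbp and Brinp3 were called in U17_KD only. Tgfbi was below detection on every clone array.

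Among genes detected on every array, the shared rises of largest size in the less changed clone were led by Gpnmb, a transmembrane glycoprotein of lysosomes and melanosomes. Its levels were 10.58, 10.44, 10.61 and 10.76 on the WT arrays, 14.31, 14.25, 14.33 and 14.22 on the U17_KD arrays and 13.22, 13.05, 12.64 and 13.10 on the U17_OE arrays. All 8 clone arrays lay above all WT arrays, and U17_KD above U17_OE. The clone average exceeded WT by 3.04 ± 0.09 (SE, log2, adjusted p = 3.95e-14), made up of 3.68 in U17_KD and 2.40 in U17_OE. The 3 other kept Gpnmb probes also rose on average, by 0.77 to 3.64, and 2 of them were called in both clones. The melanocyte genes Pmel, Dct, Tyr and Mlana were detected on no array. Of 25 kept lysosome genes, Gpnmb was the only shared change in the fit of all arrays, against 2 shared rises without U17_OE replicate 1 or 2.

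Cfap161, which encodes a protein of cilia and flagella, stood out for nearly equal levels in the clones. Its levels were 6.49, 6.17, 6.48 and 6.49 on the WT arrays, 8.29, 8.40, 8.32 and 8.27 on the U17_KD arrays and 8.24, 8.41, 8.21 and 8.35 on the U17_OE arrays. The WT arrays lay well below every clone array, and the clone arrays overlapped with one another. The average difference was 1.91 ± 0.09 (adjusted p = 5.47e-11), and the difference between the clones was 0.02 ± 0.11 (adjusted p = 0.915).

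Ly6c1, a surface antigen anchored by a lipid and used as a marker of leukocyte and endothelial subsets, had levels of 7.02, 6.80, 6.87 and 6.77 on the WT arrays, 11.06, 10.98, 10.87 and 10.91 on the U17_KD arrays and 8.30, 8.43, 8.57 and 8.63 on the U17_OE arrays. The 3 groups did not overlap, with WT lowest and U17_KD highest. Of 7 endothelial markers, Pecam1, Cdh5, Tek, Tie1 and Eng were detected on no array. Of the 2 kept, 1 was called higher in U17_KD and none in U17_OE. The average difference of Ly6c1 was 2.85 ± 0.09 (adjusted p = 7.38e-14). Olfm1, a secreted olfactomedin glycoprotein, had a like pattern, with 6.16 to 6.86 in WT, 10.35 to 10.62 in U17_KD and 7.80 to 8.19 in U17_OE. Both of its other kept probes were called in both clones.

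Gas6, a ligand of the receptor kinases Axl, Tyro3 and Mertk that was first isolated from growth-arrested fibroblasts, had levels of 7.69, 7.77, 7.54 and 7.49 on the WT arrays, 9.83, 9.74, 9.81 and 9.68 on the U17_KD arrays and 8.89, 9.02, 9.41 and 9.02 on the U17_OE arrays. WT was lowest and U17_KD highest, without overlap. The average rise was 1.80 ± 0.10 (adjusted p = 1.42e-10). Ccl7, a chemokine that attracts monocytes, was already abundant in WT, with 10.80, 10.71, 10.84 and 10.98 on the WT arrays, 12.58, 12.61, 12.37 and 12.58 on the U17_KD arrays and 12.23, 12.31, 12.25 and 12.25 on the U17_OE arrays. All clone arrays were higher, by 1.56 ± 0.07 on average (adjusted p = 6.11e-12). Cck, the precursor of the peptide hormone cholecystokinin, rose by 1.54 ± 0.11 in U17_KD and 1.24 ± 0.11 in U17_OE, from 9.38 to 9.80 in WT. Ceruloplasmin (Cp), a copper-carrying ferroxidase, rose from 7.22 to 7.79 to 9.82 to 10.14 and 8.94 to 9.09 (average 1.91 ± 0.10), and both of its other probes rose as well.

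Tgm2, a transglutaminase that crosslinks proteins, had a higher mean in U17_OE (9.75) than in U17_KD (9.56), unlike the leading rises above. Its levels were 8.48, 8.35, 8.37 and 8.45 on the WT arrays, 9.59, 9.55, 9.45 and 9.65 on the U17_KD arrays and 9.68, 9.90, 9.62 and 9.81 on the U17_OE arrays. WT was lowest without overlap, and the 2 clones did not differ by the test (-0.19 ± 0.09, adjusted p = 0.131). The average rise was 1.24 ± 0.08 (adjusted p = 1.26e-09). Ppargc1a, a transcriptional coactivator of genes for mitochondria, rose by 2.83 in U17_KD and 1.25 in U17_OE. Adam23, a catalytically inactive member of the ADAM family that acts in adhesion, rose by 2.50 and 1.29. Nnmt, which methylates nicotinamide, rose by 2.07 and 1.23, and Fam13c by 2.36 and 1.27. In each of these genes no clone array fell within the WT range.

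**Figure D2:**
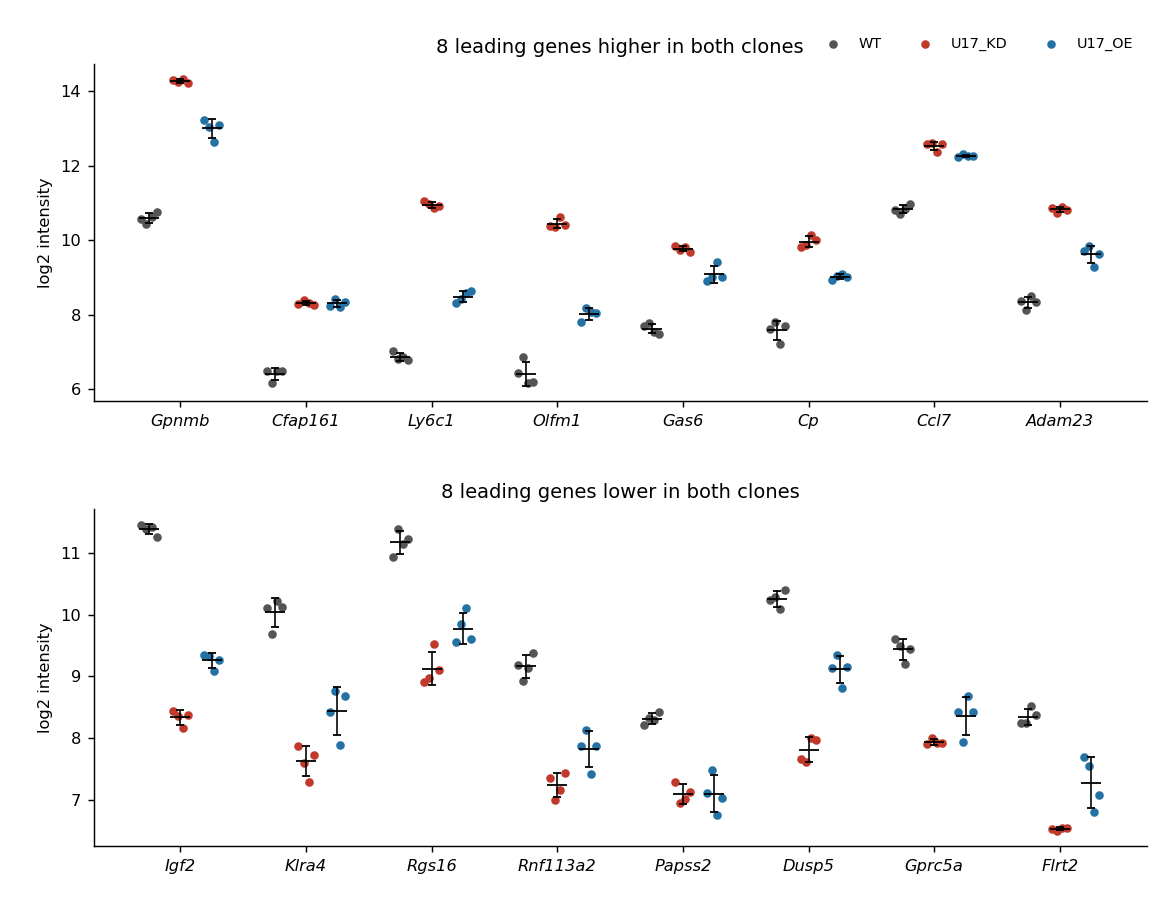
Log2 intensity on each of the 12 arrays for the 8 leading genes higher (top) and the 8 leading genes lower (bottom) in both clones, with points for arrays, horizontal bars for the group mean and vertical bars for the SD (n = 4). No clone array overlaps the WT arrays for any of the 16 genes, and the U17_OE points of most genes lie between those of WT and U17_KD.

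Some shared rises began from a level below detection in WT, so that only a lower bound of the change is known. Tmem176b, a membrane protein, had values of 4.98, 4.87, 5.01 and 5.20 on the WT arrays, 8.10, 8.09, 7.97 and 8.12 on the U17_KD arrays and 7.36, 7.60, 7.33 and 7.58 on the U17_OE arrays. No WT array reached the detection level and all 8 clone arrays did. It was at least 5.75-fold higher in U17_KD and at least 3.79-fold higher in U17_OE (adjusted p of the average 1.72e-12). Its neighbour Tmem176a, named here after its values were seen, was likewise undetected in WT and was at least 1.58-fold and at least 1.40-fold higher (adjusted p 6.76e-06). The start sites of these genes face away from each other, and the bases between them are shown because both genes rose together. This stretch, from RefSeq on GRCm38.p6, plus strand, chr6:48841375-48841482, holds none of the 4 motifs described with Mvk.
Tmem176b to Tmem176a: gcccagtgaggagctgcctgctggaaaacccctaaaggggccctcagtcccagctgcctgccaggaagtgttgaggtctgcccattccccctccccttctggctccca

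Sod3, the extracellular superoxide dismutase, was also undetected in WT and was at least 3.885-fold higher in U17_KD and at least 2.53-fold higher in U17_OE. Akr1c12, an aldo-keto reductase with close paralogs that a probe may not tell apart, was at least 6.35-fold and at least 2.40-fold higher. Srpx2, a secreted sushi-repeat protein detected on 3 WT arrays, rose by 3.98 in U17_KD and 2.25 in U17_OE. Rab27b, a small GTPase of secretory vesicles detected on 2 WT arrays, rose by 1.78 and 1.34. These sizes rest in part on WT values below detection.

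The shared falls were led by Igf2, an imprinted growth factor of fetal tissues. Its levels were 11.45, 11.39, 11.41 and 11.26 on the WT arrays, 8.44, 8.36, 8.17 and 8.38 on the U17_KD arrays and 9.35, 9.33, 9.08 and 9.27 on the U17_OE arrays. The groups did not overlap, with WT highest and U17_KD lowest. The clone average fell by 2.58 ± 0.08 (SE, log2, adjusted p = 7.82e-14), with -3.04 in U17_KD and -2.12 in U17_OE. Of 14 kept genes of the imprinted list, Grb10, an adaptor that inhibits the insulin and IGF receptors, was the other shared fall (-0.42 and -0.37), though its other probe was not called in both clones, and Dhcr7 was the 1 shared rise. Igfbp6, a binding protein with a preference for Igf2, rose by 0.34 and 0.36, a call that was lost without WT replicate 3.

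Rgs16, a protein that speeds the shut-off of G proteins, had levels of 10.93, 11.38, 11.14 and 11.23 on the WT arrays, 8.91, 8.97, 9.52 and 9.11 on the U17_KD arrays and 9.55, 9.84, 10.10 and 9.60 on the U17_OE arrays. All WT arrays lay above all clone arrays, and the average fell by 1.72 ± 0.12 (adjusted p = 4.89e-09). Dusp5, a nuclear phosphatase of ERK, had levels of 10.24, 10.29, 10.09 and 10.40 on the WT arrays, 7.67, 7.61, 8.0 and 7.97 on the U17_KD arrays and 9.14, 9.35, 8.81 and 9.15 on the U17_OE arrays. The groups were apart, with U17_OE between WT and U17_KD, and the average fell by 1.79 ± 0.11 (adjusted p = 5.24e-10). Gprc5a, an orphan receptor induced by retinoic acid, had differences of -1.49 in U17_KD and -1.07 in U17_OE. Flrt2, an adhesion protein with leucine-rich repeats, had -1.82 and -1.07.

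Of the enzymes among the leading falls, Papss2, which makes the sulfate donor used to sulfate proteoglycans, had levels of 8.22, 8.33, 8.29 and 8.43 on the WT arrays, 7.30, 6.95, 7.01 and 7.13 on the U17_KD arrays and 7.11, 7.49, 6.76 and 7.04 on the U17_OE arrays. WT lay above all clone arrays, and the clone means were nearly the same, with an average difference of -1.22 ± 0.12 (adjusted p = 4.62e-07) and a difference between the clones of 0.00 ± 0.14 (adjusted p = 0.993). The second kept probe of Papss2 had -0.46 on average, without a call in both clones. Dicer1, the nuclease that cuts microRNA precursors, had levels of 8.84, 9.12, 8.85 and 8.74 on the WT arrays, 7.93, 7.89, 7.99 and 7.94 on the U17_KD arrays and 7.83, 7.97, 8.13 and 7.84 on the U17_OE arrays. The clones overlapped with each other and not with WT, and the average difference was -0.95 ± 0.09 (adjusted p = 4.35e-07). Of its 2 other probes 1 was called in both clones. Mid1ip1, which promotes the polymerisation of acetyl-CoA carboxylase, the first enzyme of fatty acid synthesis, had differences of -1.05 in U17_KD and -1.12 in U17_OE.

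Fbln2, a fibulin of the extracellular matrix, had differences of -1.06 in U17_KD and -1.11 in U17_OE, but its probes disagreed: of 2 others, 1 fell in both clones and 1 was called in the opposite direction (average 0.52). Cgnl1, a protein of tight junctions, had -1.13 and -1.04, with its other probe not called in both clones. Klra4, a lectin-like receptor of natural killer cells whose gene family holds near-identical copies, had -2.41 and -1.60. Rnf113a2, a RING finger gene, had -1.92 and -1.34, Dbndd2 -1.47 and -0.97, and Fam110c -1.19 and -0.98. None of these genes had a clone array within the WT range.

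Other shared falls ended below detection. Tgfbi, a matrix protein induced by TGF-beta, had levels of 6.86, 7.08, 6.75 and 6.60 on the WT arrays, 4.55, 4.57, 4.43 and 4.40 on the U17_KD arrays and 4.54, 4.58, 4.49 and 4.41 on the U17_OE arrays. It was detected on all WT arrays and on no clone array, and was at least 2.43-fold lower in each clone (adjusted p of the average 2.56e-10). Acta1, the alpha-actin of skeletal muscle, was at least 2.79-fold lower in each clone, and Lum, a small proteoglycan that binds collagen, at least 2.87-fold, again with no clone array at the detection level. Tmem185b was at least 4.21-fold lower in U17_KD and was detected on 2 U17_OE arrays, where it differed from WT by -1.99. Map2, a microtubule-associated protein best known from neurons, was detected on 4 WT arrays and on 1 array of each clone, with differences of -1.83 and -1.82.

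The shared rises and falls were next read by function, through 27 gene lists. Each count of shared genes stands beside the share of all genes tested, 4.55% shared rises and 4.01% shared falls, and each list's median beside the median over all genes, -0.02 on the log2 scale. Counts of genes higher or lower on average stand beside 15.2% and 14.8% of all genes. Counts in a single clone stand beside 40.5% called in U17_KD and 12.8% in U17_OE, in either direction. These are counts over lists chosen with earlier results known, and no list was tested against the other genes.

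**Figure D3:**
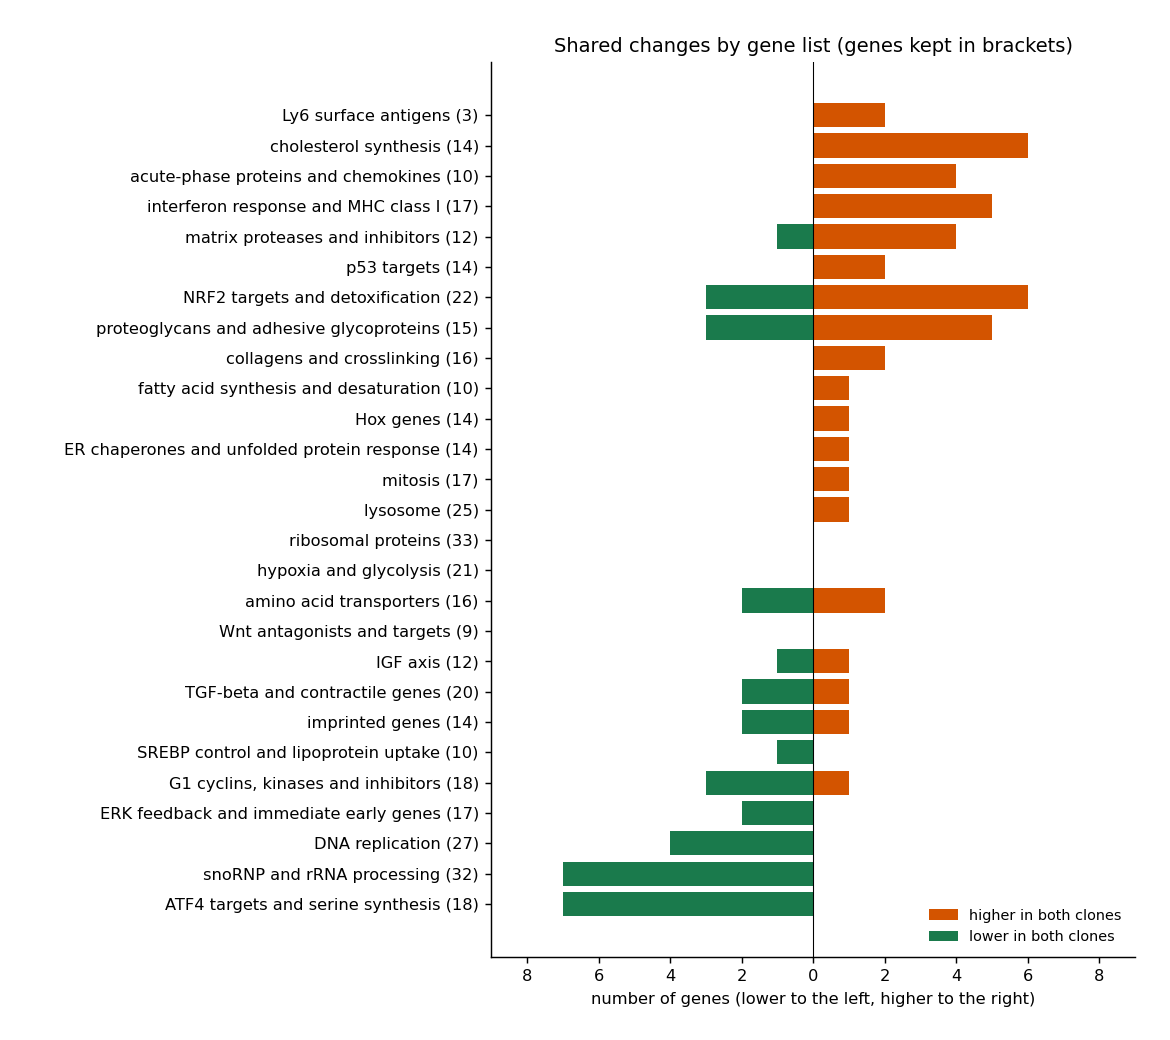
Number of genes higher (orange, to the right) and lower (green, to the left) in both clones for each of 27 gene lists, with the number of genes kept in brackets, ordered by the share higher minus the share lower. Cholesterol synthesis has 6 of 14 genes higher and none lower, the ATF4 and serine synthesis list and the snoRNP and rRNA processing list have 7 genes lower each and none higher, and the hypoxia, ribosomal protein and Wnt lists have no shared gene.

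Of 14 genes of cholesterol synthesis kept, 6 were higher in both clones and none was lower, with a median average difference of 0.33. They span the pathway, from the mevalonate kinases and decarboxylase Mvk, Pmvk and Mvd to lanosterol synthase (Lss) and the late enzymes Nsdhl and Dhcr7. Mvk had levels of 8.04, 7.90, 7.88 and 8.08 on the WT arrays, 9.34, 9.37, 9.29 and 9.40 on the U17_KD arrays and 8.76, 9.05, 9.56 and 9.04 on the U17_OE arrays. WT was lowest without overlap, and the average rise was 1.25 ± 0.11 (adjusted p = 1.27e-07). Dhcr7, the reductase of the last step, had levels of 6.86, 7.10, 6.66 and 7.09 on the WT arrays, 7.54, 7.87, 7.79 and 7.92 on the U17_KD arrays and 7.44, 7.53, 7.85 and 7.55 on the U17_OE arrays, all clone arrays above WT, with an average rise of 0.76 ± 0.12 (adjusted p = 7.83e-05). The rises in U17_KD and U17_OE were 0.60 and 0.52 for Pmvk, 0.53 and 0.53 for Mvd, 0.26 and 0.57 for Lss, and 0.35 and 0.36 for Nsdhl. The call of Pmvk was lost without WT replicate 3 or 4, that of Lss without WT replicate 1, 3 or 4 or any U17_KD array, and the count ranged from 4 to 7 over left-out arrays. The other kept probe of Lss was not called in both clones. Hsd17b7 passed on average (0.52) and not in U17_OE (0.33, adjusted p = 0.0574), though it did without U17_OE replicate 3, and Tm7sf2 had -0.91 in U17_KD, where it was called lower, and 0.05 in U17_OE.

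Of 10 kept genes for SREBP control and lipoprotein uptake none was a shared rise by its brightest probe. Vldlr, a receptor of triglyceride-rich lipoproteins, was the shared fall, at least 3.62-fold lower in U17_KD with a difference of -0.77 in U17_OE (adjusted p = 0.00199). Insig1, which holds SREBP back in the endoplasmic reticulum and is itself an SREBP target, differed by 0.41 (adjusted p = 0.00315) and 0.29 (adjusted p = 0.0718), and was called in both clones without U17_OE replicate 2. Of the 2 other kept Insig1 probes, with average differences of 0.04 to 0.38, 1 was called higher in both clones. Of 10 genes for fatty acid synthesis, Acss2, which activates acetate, was the shared rise (0.67 and 0.40), and of the left-out arrays only WT replicate 4, U17_OE replicate 3 and U17_KD replicate 3 left that call in place.

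Mvk lies head to head with Mmab, which encodes an enzyme of vitamin B12 metabolism and was named here after its values were seen. Mmab rose by 0.55 in U17_KD (adjusted p = 0.000521) and differed by 0.25 in U17_OE (adjusted p = 0.165). The stretch between their start sites is shown because the leading sterol gene begins in it. It comes from RefSeq on GRCm38.p6, plus strand, chr5:114444028-114444268, and capitals mark 1 match to the core of the antioxidant response element (TGACNNNGC) and 5 CCAAT boxes, read on either strand. The matches do not overlap.
Mmab to Mvk: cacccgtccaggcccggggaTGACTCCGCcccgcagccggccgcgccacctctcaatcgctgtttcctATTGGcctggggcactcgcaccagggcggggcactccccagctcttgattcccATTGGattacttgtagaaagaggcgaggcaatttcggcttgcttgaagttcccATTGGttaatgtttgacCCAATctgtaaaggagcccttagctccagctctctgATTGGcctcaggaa
The promoter windows of RefSeq, 250 bases before to 50 after each start, were searched on both strands for 4 motifs. The core of the SREBP site (TCACCCC) was in 4.97% of all 32851 windows and in 0 of the 9 windows of the 6 shared cholesterol genes, and the E-box (CACGTG) was in 7.15% and in 1, of Dhcr7. The antioxidant core was in 12.4% of windows and in 3 of the 9, of Dhcr7, Mvk and Pmvk. The CCAAT box, which was added after the first motifs had been counted, was in 37.4% of windows and in 6 of the 9, with at least 1 window of each gene. Of the 14 leading rises, 11 were matched with 15 windows, of which the SREBP core was in 0, the E-box in 1 (Cck), the antioxidant core in 1 (Mvk) and the CCAAT box in 4 (Cfap161, Cp, Ly6c1 and Mvk). A match describes the letters only.

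Of 10 kept genes for acute-phase proteins and chemokines, 4 were shared rises and none was a shared fall, with a median of 0.64, and on average 6 were higher and 2 lower. Besides Ccl7, these were Ccl2, which attracts monocytes (0.94 in U17_KD and 0.64 in U17_OE), Ccl8 (2.11 and 0.66, detected on 1 WT array) and the protease inhibitor Serpina3n. Serpina3n had levels of 7.39, 7.13, 7.43 and 7.41 on the WT arrays, 8.33, 8.28, 8.25 and 8.36 on the U17_KD arrays and 9.17, 9.34, 9.19 and 9.31 on the U17_OE arrays. The groups did not overlap and, unlike most shared genes, U17_OE was highest, above U17_KD by 0.95 (adjusted p = 7.22e-07). The call of Ccl8 was lost without WT replicate 2, 3 or 4 or U17_OE replicate 2. The list's Cxcl12 moved in opposite directions, 0.55 in U17_KD and -1.57 in U17_OE.

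Of 17 kept genes for the interferon response and MHC class I, 5 were shared rises and none was a shared fall (median 0.35). On average 9 were higher and 3 lower, and 3 were called lower in U17_KD. Ifitm3, which hinders the entry of viruses, had levels of 10.95, 10.98, 10.68 and 10.82 on the WT arrays, 12.22, 12.24, 12.07 and 12.20 on the U17_KD arrays and 11.50, 11.75, 12.09 and 11.88 on the U17_OE arrays. No clone array overlapped WT, and the average rise was 1.13 ± 0.09 (adjusted p = 2.89e-08). The ubiquitin-like modifier Isg15 rose by 1.27 and 0.64, the MHC class I light chain B2m by 0.41 and 0.28, the peptide-loading protein Tapbp by 1.30 and 0.49, with its other probe not called in both clones, and Stat2, which carries the interferon signal to the nucleus, by 0.64 and 0.50. Without WT replicate 3 the count was 3. Stat2 was lost without WT replicate 3 or 4 or U17_OE replicate 1 or 3, and Tapbp without WT replicate 1 or 3 or U17_OE replicate 4. Gbp2 and Gbp3, also induced by interferon, rose in U17_KD and had differences of -0.10 and 0.14 in U17_OE. Macrophage and leukocyte markers were at 498 to 598 in WT, 551 to 599 in U17_KD and 692 to 847 in U17_OE when summed. Ptprc, Adgre1, Itgam, Lyz2, Tyrobp and Cd3e were detected on no array and Cd14 on every array. Of the 2 such markers kept, 1 was called higher in U17_OE and none in U17_KD.

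The Ly6 family of surface antigens had 3 members kept, of which Ly6c1 and Ly6e, the latter by 1.41 in U17_KD and 0.65 in U17_OE, were shared rises. Of 14 p53 targets, 2 were shared rises and none was a shared fall (median 0.01). On average 4 were higher and 2 lower, and 3 were called lower in U17_KD. The death receptor Fas rose by 2.00 in U17_KD and 1.04 in U17_OE. Sesn1, a stress protein that restrains mTORC1, rose by 1.03 and 0.40, a call that was lost without U17_OE replicate 1, 2 or 4, WT replicate 1, 2 or 3, or U17_KD replicate 1, 2 or 4. Of the 2 other kept Sesn1 probes 1 was called in both clones. Xbp1, a transcription factor of the unfolded protein response, was the 1 shared rise of 14 genes of that list (1.16 and 0.45). Of 16 amino acid transporters, 2 were shared rises and 2, Slc7a11 and Slc7a2, were shared falls. On average 2 were higher and 5 lower (median -0.13). Slc7a3 and Slc1a5 fell in U17_KD (-0.88 and -0.79) and each differed by 0.06 in U17_OE. The glutamate transporter Slc1a3 rose by 3.08 in U17_KD and 0.60 in U17_OE. Slc38a2, a carrier of neutral amino acids, rose by 0.91 and 0.26. Its 2 other probes, with average differences of -0.28 to 0.20, were not called in both clones. The call of Slc38a2 was lost without WT replicate 1 or 2 or U17_OE replicate 1 or 4. Hoxa2, a patterning factor, was the shared gene of 14 Hox genes (0.77 and 0.42), with its other probe not called in both clones and the call lost without WT replicate 3 or U17_OE replicate 2 or 4.

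Genes of the extracellular matrix moved in both directions. Of 15 kept proteoglycans and adhesive glycoproteins 5 were shared rises and 3 were shared falls. Higher were Srpx2, Prelp, a leucine-rich proteoglycan (2.55 in U17_KD and 1.12 in U17_OE, detected on 3 WT arrays), the antiangiogenic glycoprotein Thbs2 (0.87 and 0.61), the collagen-binding protein Sparc (1.17 and 0.48) and the microfibril protein Mfap5 (1.38 and 0.35). The call of Mfap5 was close to the threshold in U17_OE (adjusted p = 0.0426) and was lost without any single array other than WT replicate 4. Lower were Lum, Fbln2 and Smoc1, a calcium-binding basement membrane protein, which was at least 10.2-fold lower in U17_KD with a difference of -0.53 in U17_OE (adjusted p = 0.014).

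Collagens showed how the average can rest on 1 clone. Of 16 genes for collagens and their crosslinking, 12 were higher on average (median 0.52), yet only Col6a1 (1.07 and 0.49) and Col6a2 (1.17 and 0.67), chains of the beaded collagen VI, were called in both clones. The median was 0.98 in U17_KD and 0.16 in U17_OE. Col1a1 rose by 1.65 in U17_KD and differed by 0.45 in U17_OE (adjusted p = 0.112), and Lox, which crosslinks collagen, rose by 1.85 and differed by 0.15. Col1a1 was called in both clones without U17_OE replicate 2 and Lox without U17_OE replicate 3. The shared count was 1 without WT replicate 3 or U17_OE replicate 4 and 4 without U17_OE replicate 3. Of 12 proteases and inhibitors, the gelatinase Mmp2 (0.53 and 0.41), the plasminogen activator Plat (1.41 and 0.37) and the inhibitors Serpinf1 (0.46 and 0.26) and Timp3 (1.53 and 0.54) were shared rises, while Plaur, the receptor of urokinase, was a shared fall (-1.53 and -0.71). The other kept probe of Timp3 had -0.04 on average and was not called in both clones.

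Detoxification genes moved in both directions. Of 22 genes kept, 6 were shared rises and 3 were shared falls (median 0.09). The rises were the glutathione transferases Gstm1 (1.63 in U17_KD and 0.46 in U17_OE, with its other probe not called in both clones), Gstm2 (1.57 and 0.50), and Mgst1 (1.90 and 0.91), the epoxide hydrolase Ephx1 (1.37 and 0.30), the aldehyde dehydrogenase Aldh3a1 (1.24 and 1.75, detected on 3 WT arrays) and Sod3. Another transferase, Gstt1, was called in U17_OE only, with 1.01 there and 0.25 in U17_KD, where its adjusted p was 0.295. The falls were Hmox1, which breaks down heme (-1.03 and -0.94), Gclm, a subunit of the enzyme that starts glutathione synthesis (-0.95 and -0.66), and the cystine transporter Slc7a11 (-2.26 and -1.01). Slc7a11 was detected on 1 U17_KD array, so its size there rests in part on values below detection. The 2 other probes of Slc7a11, with average differences of -0.22 to 0.01, were not called in both clones. Its call in both clones was lost when the probes were averaged. The call of Ephx1 was lost without WT replicate 1 or 3 or U17_OE replicate 4. Gstm1 and Gstm2 are close paralogs that probes may not fully separate.

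Of the 27 lists, the highest share of shared falls was in that of targets of ATF4, the factor of the amino acid response, and serine synthesis. Of 18 genes kept, 7 were shared falls (38.9%) and none was a shared rise, with a median average difference of -0.38, and 12 were lower on average. Trib3, a pseudokinase induced by ATF4, had levels of 10.53, 10.31, 10.77 and 10.63 on the WT arrays, 9.33, 9.53, 9.41 and 9.59 on the U17_KD arrays and 10.12, 9.86, 9.50 and 9.81 on the U17_OE arrays. All clone arrays lay below WT, and the average fell by 0.92 ± 0.11 (adjusted p = 3.06e-06). Mthfd2, a mitochondrial enzyme of the folate cycle, had levels of 13.13, 12.90, 13.19 and 13.14 on the WT arrays, 12.27, 12.19, 12.30 and 12.28 on the U17_KD arrays and 12.53, 12.56, 12.18 and 12.43 on the U17_OE arrays. It was lower on every clone array, by 0.75 ± 0.07 on average (adjusted p = 4.77e-07), and the other probes of Trib3 and Mthfd2 were called in both clones as well. Asns, asparagine synthetase, had differences of -0.62 in U17_KD and -0.47 in U17_OE, Aldh18a1, which starts proline synthesis, -0.78 and -0.51, and the glutathione-cleaving Chac1 -0.89 and -0.42. Phgdh, the first enzyme of serine synthesis, had -0.35 and -0.41, and Shmt2, which turns serine into glycine in mitochondria, -1.34 and -0.30. Shmt2 lost its call without WT replicate 3 or U17_OE replicate 2, and its other kept probe was not called in both clones. The count of the list was 6 to 8 over left-out arrays.

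**Figure D4:**
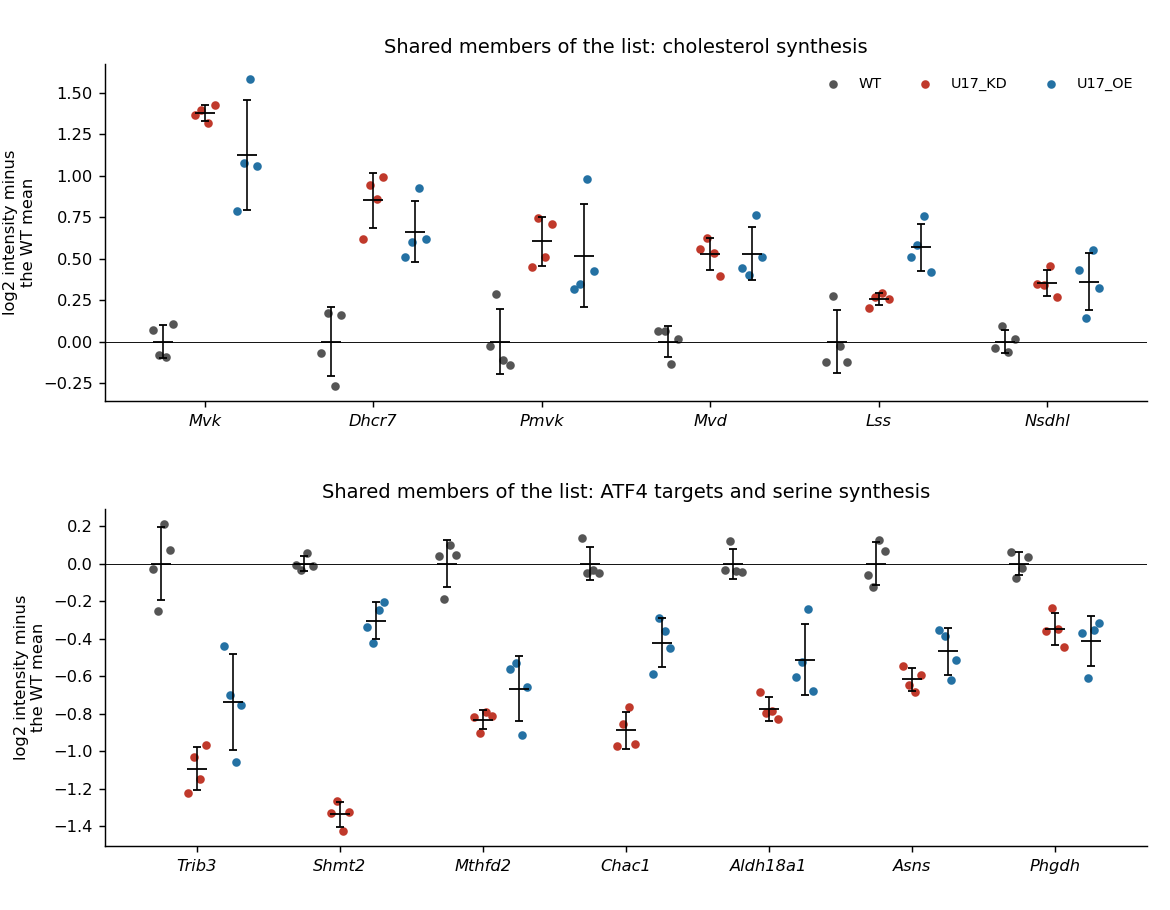
Log2 intensity minus the WT mean on each array for the 6 shared rises of the cholesterol synthesis list (top) and the 7 shared falls of the ATF4 and serine synthesis list (bottom), with points for arrays, horizontal bars for group means and vertical bars for the SD (n = 4). Mvk and Trib3 show the largest average differences of the 2 panels, 1.25 and -0.92, and Shmt2 shows the widest gap between the clones.

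Of 32 kept genes for small nucleolar ribonucleoproteins and rRNA processing, 20 were lower on average, 12 were not called and none was higher (median -0.29), while 7 passed in both clones. The shared falls were the H/ACA core protein Gar1 (-0.21 in U17_KD and -0.28 in U17_OE), nucleolin (Ncl, -0.99 and -0.40), the RNA polymerase I subunit Polr1a (-0.35 and -0.27), the processing factors Heatr1 (-0.68 and -0.37), Wdr3 (-0.59 and -0.60) and Imp4 (-0.21 and -0.22), and the rRNA methyltransferase Nop2 (-0.69 and -0.34). For Gar1, Ncl, Imp4 and Nop2 the other kept probes were not called in both clones, and of the 3 other probes of Polr1a 1 was. The shared count depended on single arrays: it was 2 without WT replicate 3 or U17_OE replicate 4, 3 without WT replicate 1 or WT replicate 4, and 4 without U17_OE replicate 2. The median was -0.48 in U17_KD and -0.12 in U17_OE. None of 33 ribosomal protein genes was a shared change.

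Of 27 kept DNA replication genes, 4 were shared falls and none was a shared rise (median -0.19). The ribonucleotide reductase subunit Rrm2 had differences of -1.12 in U17_KD and -0.79 in U17_OE, and the helicase subunit Mcm2 had -0.42 and -0.49. The replication factor Mcm10 (-0.46 and -0.31) and the flap endonuclease Fen1 (-0.51 and -0.25) passed more narrowly, Fen1 losing its call without any array other than U17_OE replicate 3, and the count of 4 became 2 without WT replicate 2, 3 or 4 or U17_OE replicate 4. The other kept probe of Mcm10 was not called in both clones. Of the list, 10 genes were lower on average and none was higher. Of 18 genes for entry into the cycle, cyclin D1 (Ccnd1, -0.74 and -0.31), cyclin E1 (Ccne1, -0.67 and -0.53) and E2f1 (-0.46 and -0.43) were shared falls and the kinase inhibitor Cdkn2c was a shared rise (0.68 and 0.34), lost without any WT array, U17_OE replicate 3 or 4 or U17_KD replicate 2. Of the 2 other kept Cdkn2c probes 1 was called in both clones. Of 17 mitosis genes, Kif23, a motor of cytokinesis, was called higher (1.08 and 0.39). Its 3 other probes had average differences of the other sign, -0.21 to -0.10, and were not called in both clones. The call of Kif23 was lost without any single array other than WT replicate 4 or U17_OE replicate 2 or 3.

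Genes of TGF-beta and the contractile programme, and of ERK signalling, also included shared falls. Of 20 kept genes of the TGF-beta and contractile list, 1 was a shared rise and 2 were shared falls (median -0.02). On average 7 were higher and 4 lower. The smooth muscle actin Acta2, a mark of contractile fibroblasts, had 14.69 to 14.80 in WT, 13.74 to 13.90 in U17_KD and 14.12 to 14.28 in U17_OE. Its differences were -0.93 and -0.55, and all 3 of its other probes were called. The actin gene Actg2 moved in opposite directions, at least 3.02-fold lower in U17_KD and higher by 1.07 in U17_OE. Ankrd1, a target of the YAP coactivator, had -1.42 and -0.48, with its other probe not called in both clones, and the tropomyosin Tpm1 was higher (0.63 and 0.38), a call lost without WT replicate 3 or WT replicate 4. The other kept probe of Tpm1 was not called in both clones. Of 17 genes of ERK feedback and the immediate early response, Dusp5 and Ier3 (-0.84 and -0.77) were shared falls, and 5 were without U17_OE replicate 3. On average 1 was higher and 6 lower (median -0.25). Dusp1 rose by 1.45 in U17_KD and differed by 0.24 in U17_OE (adjusted p = 0.148), and was a shared rise without U17_OE replicate 3. Slc7a2, a transporter of cationic amino acids, had -0.75 and -0.68. None of 21 hypoxia and glycolysis genes was shared. In U17_KD 9 were called higher and none lower, and in U17_OE 11 were called lower and none higher. Over all genes tested, 40.5% were called in U17_KD and 12.8% in U17_OE, in either direction.

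The clones were also compared with each other, a contrast that does not use WT (3012 genes called, 33.1%). Of the 779 shared genes, 349 differed in size between the clones, and 332 of these had the larger change in U17_KD. Serpina3n was among the 17 with the larger change in U17_OE. The remaining 430 did not pass this test, which does not show that they were equal. Cfap161, Papss2, Mvd and Dicer1 had nearly the same mean in both clones. The clone means of Map2 and Tgfbi were also close, but they rest on values below detection. Tgfbi was detected on no clone array and Map2 on 1 array of each clone, so equal expression cannot be read from them. Without U17_OE replicate 4 the 349 became 222.

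Some of the largest average differences were called in U17_KD and not in U17_OE. Brinp3 was undetected in WT and U17_OE and at least 9.06-fold higher in U17_KD. The pentraxin Ptx3 (3.46 in U17_KD and 0.17 in U17_OE), the protease Adamts9 (2.95 and 0.47) and Gm773 (3.56 and -0.24) also owed their place among the rises to U17_KD. On the other side Snurf, an imprinted gene, was undetected in U17_KD and at least 10.5-fold lower there, with -0.20 in U17_OE (adjusted p = 0.373). Renbp, which encodes a renin-binding epimerase, had -4.19 and 0.30, the iron exporter Slc40a1 was at least 4.39-fold lower and had -0.70, and the mutarotase Galm at least 4.05-fold lower and -0.07. None of these 8 genes was called in U17_OE, but Adamts9 was called in both clones in 3 of 23 alternative settings (a floor in place of a background model, without WT replicate 3 and without U17_OE replicate 3) and Slc40a1 in 4 (an offset of 50, array weights, and without U17_OE replicate 1 or 2).

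Shared status is a threshold, and genes just inside and outside it had similar values. Rdh11 (-0.30 in U17_KD and -0.47 in U17_OE, higher of the 2 adjusted p values 0.0497), Ppp2r5e (-0.58 and -0.37, 0.0495) and Ruvbl2 (-0.63 and -0.30, 0.0495) lay just inside. Nudt5 (-0.40 and -0.23, 0.050), Rtkn (-0.42 and -0.40, 0.0508) and Foxc1 (1.28 and 0.33, 0.0508) lay just outside.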

How the data were processed

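Illumina mouse bead arrays measured RNA of 12 NIH-3T3 cultures, after cDNA synthesis primed by oligo-dT per the labels. GenomeStudio 2010 is named in the submitters' processing notes. The deposited table used here holds background-subtracted intensity on a linear scale, already normalized between arrays by a method not given in the sources used here. Intensity and detection p-value for WT came from the authors' unnormalized table. The other 40 of its 48 columns were not, since those array names occur in no label.

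Background mean (0.492) and SD (15.8), estimated from the WT detection p-values, entered a normexp correction of all arrays, and log2 was taken after adding 16. A probe was detected at 30.5, the mean over WT arrays of the lowest value with a detection p under 0.05. A probe needed detection on 4 or more arrays (16706 of 45281 kept), and a gene took its brightest probe (9108 genes, and 2525 probes without a single symbol). Names came from the platform annotation, matched to RefSeq by gene ID for 34807 of 34885 probes with 1 symbol. limma 3.58.1 in R 4.3.3 fitted 1 model of 3 groups with 9 residual degrees of freedom and a variance trend, two-sided, with Benjamini-Hochberg adjustment over kept probes in each comparison at 0.05. Shared means called in the average and in each clone with 1 sign. A group below detection on all 4 arrays gives only a bound, computed from the bright group's mean over, per array, the dim probe's value or, if higher, the lowest detected value. The script was tested on simulated data.

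The genes selected were the shared genes ranked by the smaller of both clone differences (14 in each direction detected on every array, and 5 in each direction otherwise), up to 4 shared and 2 other called members of each list (further shared members are listed in full), and 4 genes in each direction called in the average and not in both clones. Only some of the other called members are described in the text. With the genes added after their values were seen, those selected make up the 176 named genes of the alternative runs. The comparison, rule and lists were chosen with earlier results of these data known. Same-numbered arrays did not deviate together (r -0.382 to 0.0891), so the numbers do not pair the samples. Alternatives covered background, offset, filter, quantile normalization, variance trend, array weights, replicate block, left-out arrays, probe averaging, separate fits and a minimum fold. The number of arrays limits the precision.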

Additional observations from a re-analysis of the deposited data

Results flagged for a closer look

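In 46 leading genes, each group of 4 arrays was checked for an array far from the other 3, and 4 of 138 such groups had one. Chance sets an array apart in about 1 in 20 such groups. Cfap161 was at 6.17 on WT replicate 2, with the other WT arrays at 6.48 to 6.49. Ccl7 was at 12.37 on U17_KD replicate 3, with the others at 12.58 to 12.61. Ptx3 was at 5.54 on U17_OE replicate 4, with the others at 6.18 to 6.27. Fbln2 was at 12.41 on U17_OE replicate 3, with the others at 11.84 to 11.86, and all 4 lay below the WT range.

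The clones differed from each other in the size of 349 shared changes by the test of U17_KD against U17_OE. Among genes whose average rested on 1 clone, the same test gave log2 differences (U17_KD minus U17_OE) of 3.98 for Brinp3, 3.29 for Ptx3, 2.48 for Adamts9 and 3.80 for Gm773. It gave -3.93 for Snurf, -4.50 for Renbp, -1.88 for Slc40a1 and -2.72 for Galm. The values of Brinp3, Snurf, Slc40a1 and Galm rest partly on levels below detection.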

How the results depend on the processing

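No shared gene became shared in the opposite direction under any alternative run, and the 38 leading shared genes stayed shared in each alternative that kept their probe. The sign in each single clone was not compared between runs. Of 3838 alternative values of the clone average over 176 named genes, 3755 kept direction and call, 81 lost the call and 1 gained it, and 1 reversed: Cxcl12, -0.51 by its brightest probe, had 0.13 as the mean of its probes, which disagree. The count changed at least 2-fold in both clones, 53, was 33 with normexp fitted to each array, 94 with a floor in place of a background model, 34 with an offset of 50 and 33 over probes detected on all arrays. With no filter on detection, 236 shared falls and 218 differences in size passed, as more probes were tested. Testing against a fold of 1.2 left 82 shared rises and 54 shared falls. Under it the cholesterol synthesis list went from 6 shared rises to 1 and the ATF4 and serine synthesis list from 7 shared falls to 2. The snoRNP and rRNA processing list went from 7 shared falls to 0. The acute-phase and chemokine list went from 4 shared rises to 3, and the detoxification list kept its 3 shared falls.

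Leaving out 1 array at a time, the average called 2211 (without WT replicate 3) to 3494 genes and 3676 to 5916 probes (4577 with all arrays), with 293 to 597 shared rises, 235 to 549 shared falls, 222 to 473 differences in size, 52 to 57 changes of 2-fold and 917 to 1374 genes without overlap. The upper ends for genes, probes, rises, falls, differences in size and genes without overlap came without U17_OE replicate 3. With the replicate number as a block, which does not pair the samples, 2390 genes (3988 probes) were called in the average, 313 shared rises, 247 shared falls and 241 differences in size. Separate fits of each clone gave 279 and 248. Of 1242 alternative list counts, 138 moved by over 1.5 times.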

Other observations

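Some further pairs and relatives, all chosen after their values were seen, moved in both clones. The extracellular sulfatases, which trim sulfate groups from heparan sulfate chains, moved apart: Sulf1 had -1.45 in U17_KD and -1.28 in U17_OE (adjusted p of the average 1.23e-06), and Sulf2 had 1.61 and 0.90 (adjusted p 1.38e-06). Sulf1 was detected on 4 WT arrays, 2 U17_KD arrays and 3 U17_OE arrays. Papss2, which makes the donor of such sulfate groups, was among the leading shared falls.

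Ifitm1, a relative of Ifitm3 on the same chromosome, rose by 1.29 and 0.86 (adjusted p 8.7e-08). Mgst2, a microsomal glutathione transferase, rose by 1.72 and 0.99 (adjusted p 7.73e-08). Lpl, the lipase that releases fatty acids from lipoproteins, rose by 1.61 and 0.91 (adjusted p 5.6e-07), while the other adipocyte markers Adipoq, Pparg, Plin1, Cebpa, Retn, Fabp4 and Cd36 were detected on no array. Rcc1, the gene next to Snhg3, was lower on average (-0.57, adjusted p 7.92e-05), with -0.92 in U17_KD and -0.22 in U17_OE (adjusted p 0.183), where it was called without WT replicate 2. Mgarp, a mitochondrial protein, rose by 1.62 in U17_KD and fell by 2.14 in U17_OE.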
